A study of Rattus norvegicus with 17 samples.

Results

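Neurons store transmitter in synaptic vesicles and release it through a shared set of proteins, and 51 rat genes of this machinery were followed in spinal cord neurons whose axons had been cut. A probe set counted where the array annotation gave it a single listed symbol, which held for 75 of the 31099 probe sets and for 49 of the 51 genes. Doc2a and Erc2 were not analysed here. Of the 75 probe sets, 47 were bright enough to be tested, and they represented 38 genes among 10431 named genes tested. The remaining 11 genes (Syn3, Syngr1, Stx1a, Syt5, Cplx2, Doc2b, Rph3a, Pclo, Unc13a, Unc13b and Synj2) had only dim probe sets. Counts below therefore cover 38 of the 51 genes, each taken at its brightest tested probe set.

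Every sample was a pool of 1000 retrogradely labelled rat spinal cord neurons, cut out by laser from 10 µm frozen sections of unfixed cord. Regenerating and non-regenerating neurons were both axotomised and were taken from each of 7 rats, of which 2 are called MOON265 and MOON266 and 5 carry the prefix MM (MM11, MM13, MM14, MM16 and MM17). Traced neurons that were not axotomised came from 3 other rats, MM15, MM18 and MM19, and the title of the MM15 sample calls it a high yield replicate. Strain, sex, age, the lesion, the tracer and the time after axotomy were not given in the sources used here, and neurons were chosen by their label, not by type. RNA went through 3 rounds of linear amplification before it was hybridised, 1 array per sample, so 17 arrays gave 7, 7 and 3 samples per group. Setting regenerating against non-regenerating neurons asks about regeneration within an animal, and setting non-regenerating against traced neurons asks about axotomy between animals. Regenerating neurons were also set against traced ones, and both comparisons with traced neurons share the same 3 traced arrays.

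A vesicle fuses when VAMP proteins on its membrane zip together with syntaxin and SNAP-25 on the plasma membrane into a SNARE complex. Synaptotagmins sense the calcium that triggers fusion, complexins hold the complex ready, and NSF with its SNAP adaptors takes spent complexes apart. Synapsins tether vesicles in reserve, Rab3 proteins and the scaffolds Rim, Bassoon and ELKS bring them to the active zone, and dynamin, amphiphysin and synaptojanin recover the membrane. The proteins work at axon terminals, whereas these samples hold the messenger RNA of the neurons' cell bodies and of whatever lay in the captured spots.

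Promoter sequence is shown first for the members that held a cyclic AMP response element, because Syn1, which had the lowest log2 differences from traced neurons among the members, is one of them. In the RefSeq promoters of rat build GRCr8, from 250 bases before to 50 after a gene's start, 42 promoters belonged to 40 of the member genes. The element, spelled TGACGTCA, reads the same on both strands and occurred in 3 of the 42 promoters (7.14%) and in 1.83% of 33469 promoters of all genes. Each 60-base stretch below lies upstream of the start, runs 5′ to 3′ along the gene's plus strand, and has the element in capitals.
Syn1, chrX:3725529-3725588: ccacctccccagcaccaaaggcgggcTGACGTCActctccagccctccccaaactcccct
Vamp1, chr4:159698797-159698856: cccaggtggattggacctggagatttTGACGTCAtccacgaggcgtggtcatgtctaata
Napa, chr1:85915350-85915409: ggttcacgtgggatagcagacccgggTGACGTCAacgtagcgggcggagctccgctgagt
The element began 190 bases before the start in Syn1, 71 in Vamp1 and 59 in Napa. A GC box, GGGCGGGG on either strand, was found in 16 of the 42 promoters (38.1%) and in 15.2% of all promoters. The TATA box letters TATAAA, on either strand, were found in 0 of 42 and in 14.2% of all promoters. None of these 3 motifs can overlap another, and a match describes letters in the window and is not evidence of binding. The 3 genes with the element had different log2 differences between regenerating and traced neurons, at -2.07 for Syn1, -0.52 for Vamp1 and -0.25 for Napa.

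The arrays had been scaled to nearly the same mean, yet they differed in shape. Median signal was 63.7 to 76.0 on traced arrays, 33.9 to 76.9 on non-regenerating arrays and 32.8 to 60.6 on regenerating arrays, with the 4 MOON arrays at 32.8 to 39.0. The log2 ratio of the 3′ to the 5′ Gapdh control probe sets, which grows as RNA is shortened, ran from 3.21 to 4.72 on traced, 2.94 to 6.01 on non-regenerating and 4.63 to 5.52 on regenerating arrays. Non-regenerating MM17 and traced MM15 stood apart, with median correlations to the other arrays of 0.847 and 0.821 and with 12.4% and 11.9% of all signal in their 100 brightest probe sets. All 11 neuron markers were measured and none was at 0, with summed signal of 18633 to 34968 in traced, 14423 to 34322 in non-regenerating and 15635 to 24709 in regenerating samples. Markers of astrocytes (9 of 9), oligodendrocytes (7 of 8) and microglia (8 of 11) were bright enough to be tested as well in these neuron samples, and none of them was at 0. In such pools, fewer cells of a type and less RNA per cell cannot be told apart.

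Within animals, most of the 38 members differed by less than 0.5 on the log2 scale between regenerating and non-regenerating neurons. None of the 38 members passed limma's test at an adjusted p under 0.05, a threshold that 0.0161% of all tested probe sets passed, and the smallest adjusted p of a member was 0.568. At an unadjusted p under 0.05, 1 member (Rab3b) was higher and 1 (Syt11) lower, against 4.93% and 2.50% of named genes. The members' median log2 difference was -0.08, with 14 above 0 and 24 below, beside 0.01 over all named genes. Of the 24 members with a mean signal of 200, the level to which arrays were scaled, or more, 18 were below 0 (median -0.10), and so were 2406 of 5202 named genes at that level (median 0.02). Of the 14 members below that signal, 8 were above 0 (median 0.09), beside 2724 of 5229 named genes (median 0.01). Differences were smaller than 0.5 on the log2 scale in either direction for 36 of the 38 members (94.7%) and for 97.8% of named genes, with a median SE of 0.17 for the members. Leaving out single animals moved these counts. They were 6 members lower without MM16 (named genes 3.40%), 2 lower without MOON265 (2.57%) and 3 higher without MM11 (4.66%).

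**Figure D1:**
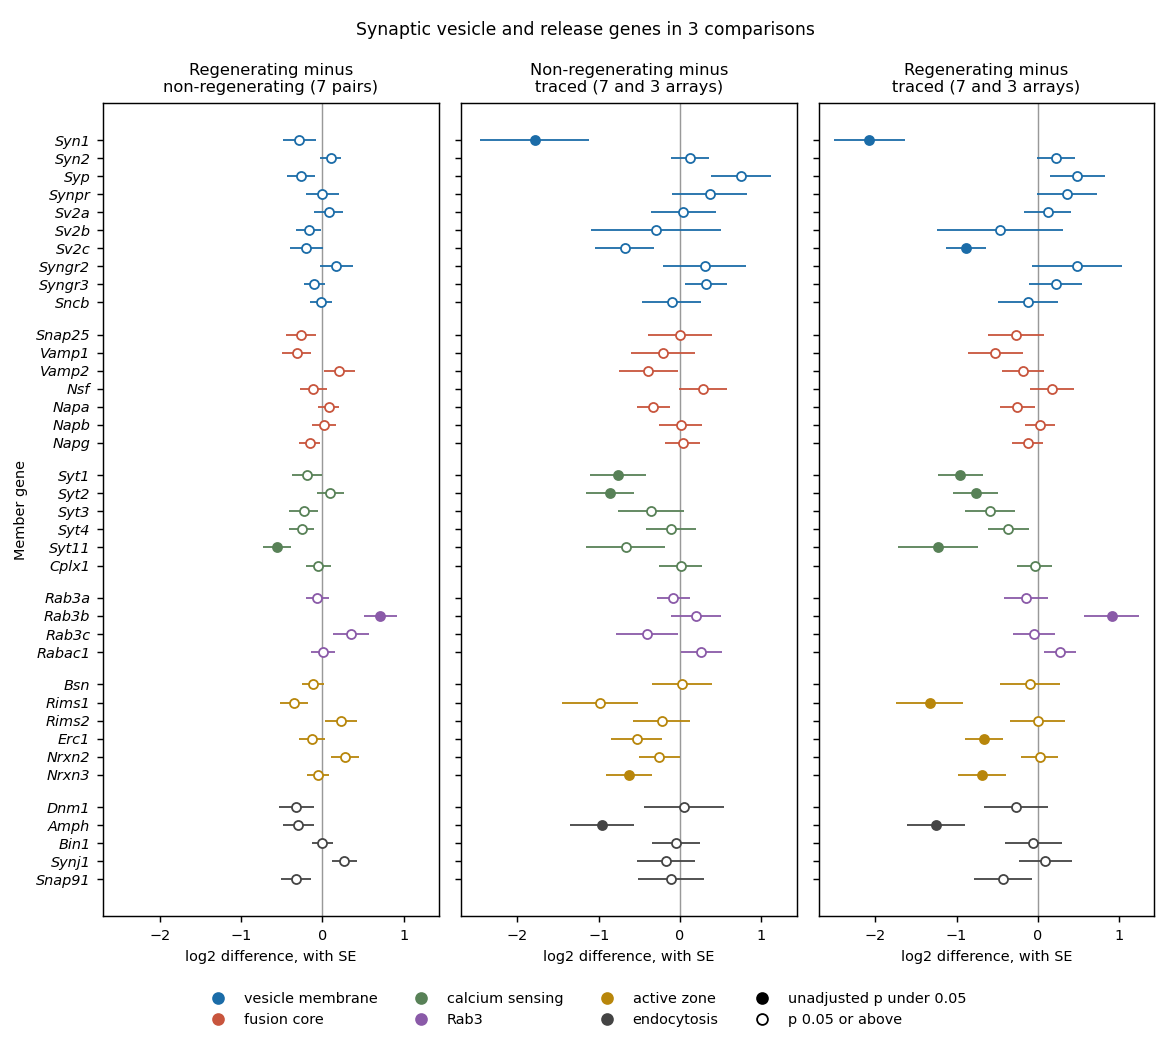
Log2 difference, with limma's SE, of each of the 38 tested members in the 3 comparisons, ordered and coloured by role; filled points have an unadjusted p under 0.05. Most members lie within 0.5 of 0 in the comparison within animals, and Syn1, at -1.79 and -2.07, lies farthest to the left in both comparisons with traced neurons.

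Single animals gave members' median differences on both sides of 0. The median was -0.26 in MM11, -0.14 in MM13, -0.16 in MM14, 0.15 in MM16, -0.34 in MM17, 0.10 in MOON265 and -0.02 in MOON266. Between 11 and 25 of the 38 members were higher in the regenerating sample of an animal. MM16 and MOON265 were the animals with more members higher than lower. With the 5 MM animals alone the median over members was -0.15, and with the 2 MOON animals alone it was 0.05.

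Rab3b, a GTPase of the Rab3 family that attaches to secretory vesicles, had the smallest p among members in this comparison. Its signal was 33.9 at the lowest, 47.7 at the median and 99.2 at the highest in regenerating neurons. In non-regenerating neurons it was 17.1, 30.2 and 33.4. The groups did not overlap, although the margin was narrow, and the regenerating sample was the higher one in 7 of 7 animals. Absence of overlap with higher regenerating samples was seen for 1 of 38 members and for 0.0192% of named genes. The mean was 59.4 ± 26.1 (SD, n = 7) against 28.2 ± 6.39 (SD, n = 7), a 1.64-fold difference on the log2(signal + 16) scale (log2 0.71, SE 0.20, unadjusted p = 0.00251 and adjusted p = 0.568 by limma). The mean difference was 0.52 in the MM animals and 1.19 in the MOON animals. In traced neurons Rab3b read 38.8 in MM18, 29.0 in MM19 and 6.8 in MM15, and MM15, one of the arrays that stood apart, was the lowest of all 17. Against traced neurons the regenerating mean was higher by log2 0.91 (SE 0.34, adjusted p = 0.128 by limma), and the groups overlapped. Without MM15 this difference was 0.53. Rab3b had a mean log2 signal of 5.71 over all arrays, close to the limit for being tested, which Cplx2 at 5.60 missed. Its regenerating samples raised that mean, so its being tested was not independent of the difference. With no such limit its difference within animals had an unadjusted p of 0.00509 and an adjusted p of 0.792 by limma.

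Motor neuron markers moved the same way as Rab3b between the groups. Of the 10 tested, 9 were higher in regenerating neurons, 8 of them at an unadjusted p under 0.05, with a median log2 difference of 1.19. Their summed signal was 4572 to 10884 in regenerating, 3084 to 5453 in non-regenerating and 2356 to 3976 in traced samples, and none was at 0. One of them, Calca, was called (log2 2.22, adjusted p = 0.0314 by limma). Transmitter genes listed here as interneuron markers went the other way within animals. All 3 of those tested were lower in regenerating neurons, 1 at an unadjusted p under 0.05, with a median log2 difference of -0.38. They were Gad1 (-0.38), Slc32a1 (-0.40, the 1 at that p) and Slc17a6 (-0.14). The part of these markers in the Rab3b result was not tested.

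Syt11, a synaptotagmin that lacks calcium binding, had the opposite pattern. Regenerating samples read 8.6 at the lowest, 38.0 at the median and 88.9 at the highest, and non-regenerating samples 24.6, 49.8 and 151.8. Groups overlapped widely, but the regenerating sample was lower in 7 of 7 animals. The log2 difference was -0.56 (SE 0.17, unadjusted p = 0.00429 and adjusted p = 0.678 by limma), with -0.43 in the MM and -0.88 in the MOON animals. Rims1, an active zone scaffold that binds Rab3, also read lower in 7 of 7 animals, at -0.35 (unadjusted p = 0.0585 by limma). Its differences were only -0.07 in MM11, -0.01 in MOON265 and -0.11 in MOON266. Regenerating and non-regenerating samples read 13.0 and 13.3 in MOON265 and 1.3 and 2.7 in MOON266, below the 16 added to each signal. The share of named genes lower in all 7 animals was not counted. Without the animal as a block, Rab3b kept an unadjusted p of 0.00528 while that of Syt11 was 0.138.

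The other Rab3 genes had unadjusted p values above 0.05 within animals. Rab3c was at 0.35 and Rab3a at -0.06 on the log2 scale, and Rabac1, which binds prenylated Rab proteins, was at 0.01. Among the 44 of 73 further release genes that were tested, 22 were higher and 22 lower. At an unadjusted p under 0.05, 3 were higher, against 4.93% of named genes. These were Sncg, a synuclein, at 0.68, the clathrin adaptor subunit Ap2a2 at 0.59 and the SNARE gene Vamp7 at 0.39, and their adjusted p values were 0.540 or more.

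**Figure D2:**
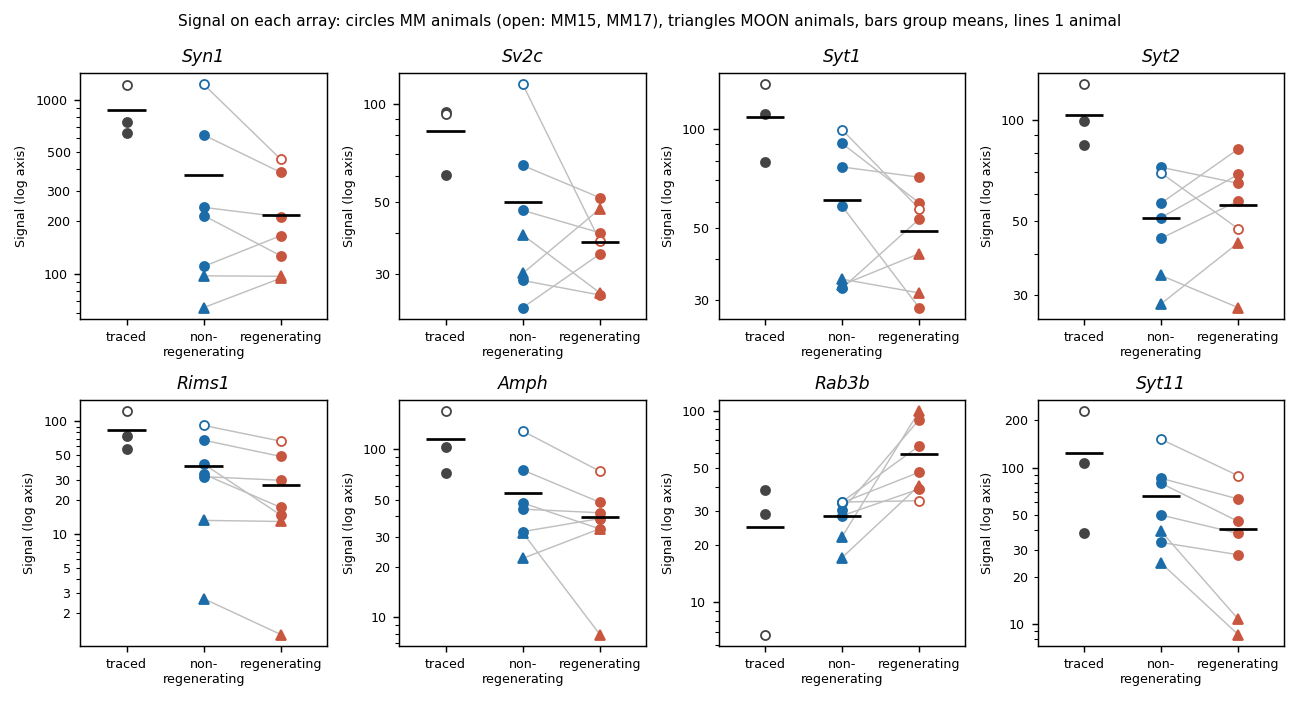
Signal, on a log axis, of 8 members on each of the 17 arrays by group, with black bars at group means, grey lines joining the samples of 1 animal, triangles for MOON animals and open circles for MM15 and MM17. Regenerating samples of Rab3b lie above all non-regenerating ones, and those of Syn1, Sv2c, Syt1 and Syt2 lie below all 3 traced samples.

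Compared with traced neurons, none of the 38 members passed the adjusted threshold in non-regenerating neurons, where 0.0430% of all tested probe sets passed, and none in regenerating neurons, where 0.215% did. The smallest adjusted p of a member was 0.472 and 0.0682. At an unadjusted p under 0.05, non-regenerating neurons had 0 members higher and 5 lower, against 3.11% and 5.97% of named genes. Regenerating neurons had 1 higher and 9 lower, against 7.07% and 13.5% of named genes. The median log2 difference was -0.11 in non-regenerating and -0.13 in regenerating neurons, with named genes at -0.06 and -0.04.

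The members counted as lower were mostly dim. Of the 9 in regenerating neurons, 7 had a mean signal below 200. That is 7 of 14 members at this level, where 22.2% of 5229 named genes met the same rule. Above it the count was 2 of 24 members (8.33%), against 4.81% of 5202 named genes. In non-regenerating neurons it was 3 of 14 below 200, against 9.87%, and 2 of 24 above it, against 2.06%. Named genes below 200 had a median log2 difference of -0.23 between regenerating and traced neurons and those above it 0.10, and the array medians given above were lower on most axotomised arrays. The part of this in the members' counts was not tested. Without MM15 the count of lower members was 6 in regenerating neurons (named genes 6.94%), with 0 higher, and 0 in non-regenerating neurons (1.66%). The non-regenerating count was 9 without non-regenerating MM17 (named genes 14.6%), 2 without MM11 (3.88%) or MOON265 (3.50%), and 3 without MOON266 (3.60%) or traced MM19 (3.86%). With the 3′ to 5′ Gapdh ratio as a covariate it was 2 in non-regenerating (2.43%) and 2 in regenerating neurons (2.08%). With the MM animals alone it was 1 (2.30%) and 7 (13.4%).

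All traced samples came from MM animals, and the sign of some members turned when the MOON animals were left out. This held for 8 of the 38 members between regenerating and traced neurons (Bin1, Napb, Nrxn2, Nsf, Rims2, Sncb, Sv2b and Syngr3). It held for 7 between non-regenerating and traced neurons (Bin1, Bsn, Napb, Rims2, Snap25, Sncb and Sv2b). None of these members had an unadjusted p under 0.05 over all arrays. Within animals 5 turned (Rabac1, Sncb, Sv2a, Synpr and Vamp2).

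In the vesicle membrane group, Syn1 stood out. It encodes synapsin I, which binds vesicles and holds them in a reserve near the release site. The 3 traced samples read 647.6 in MM18, 740.2 in MM19 and 1212.0 in MM15. Regenerating samples ran from 94.5 through a median of 165.8 to 454.4, below every traced sample. Non-regenerating samples ran from 64.1 through 216.2 to 1223.5, and the highest of them, MM17, exceeded all traced samples. Mean signal was 867 ± 303 (SD, n = 3) in traced, 368.5 ± 422 (SD, n = 7) in non-regenerating and 219 ± 144 (SD, n = 7) in regenerating neurons. The regenerating mean was 4.21-fold lower than the traced one on the log2(signal + 16) scale (log2 -2.07, SE 0.44, unadjusted p = 0.000296 and adjusted p = 0.0682 by limma). For non-regenerating neurons the difference was -1.79 (SE 0.68, adjusted p = 0.472 by limma). A second Syn1 probe set was too dim to be tested. With the MM animals alone the difference between regenerating and traced neurons was -1.73 (adjusted p = 0.0633), without MM15 it was -1.81 (adjusted p = 0.388), and with the Gapdh ratio as a covariate it was -1.51 (adjusted p = 0.932, all by limma). Syn1 passed the adjusted threshold in 6 of 23 alternatives, quantile normalization and centring of arrays on their median among them, and its adjusted p ran from 0.00372 to 0.932.

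Sv2c, a vesicle glycoprotein of the SV2 family, gave a low signal. Traced samples read 60.4 in MM18, 94.6 in MM19 and 93.1 in MM15, and regenerating samples ran from 25.9 through 37.9 to 51.5, so these groups did not overlap. Non-regenerating samples ran from 23.7 through 39.6 to 114.7 and overlapped the traced ones. The log2 difference of regenerating from traced neurons was -0.88 (SE 0.25, adjusted p = 0.0710 by limma). Other vesicle membrane genes lay on both sides of 0. Between regenerating and traced neurons 6 of the 10 tested were above 0, among them synaptophysin (Syp, 0.49), Syngr2 (0.48), Synpr (0.36), Syn2 (0.22), Syngr3 (0.22) and Sv2a (0.12). With the MM animals alone Syngr3 was at -0.11 and Syp at 0.24, whereas Syngr2 was at 1.05. Sncb, encoding beta-synuclein and with the highest mean of this group, read 2021.4 in MM18, 1944.0 in MM19 and 1656.8 in MM15. Its regenerating samples ran from 798.0 through 2135.0 to 3076.1 and its non-regenerating ones from 867.4 through 1652.1 to 3087.8, spanning the traced samples in both groups, and the log2 difference of regenerating from traced neurons was -0.12 (SE 0.37), or 0.26 with the MM animals alone.

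Synaptotagmins and complexin were grouped here as the calcium-triggered step, although Syt11 lacks calcium binding. They had the lowest median difference from traced neurons of the 6 roles. Over 5 synaptotagmin genes, among them Syt11, and Cplx1, the median log2 difference was -0.68 in regenerating and -0.52 in non-regenerating neurons. At an unadjusted p under 0.05, 3 of these 6 genes (Syt1, Syt2 and Syt11) and 2 of them (Syt1 and Syt2) were lower. The shares of named genes were 13.5% and 5.97%. Below a signal of 200, where Syt1, Syt2 and Syt11 lay, the shares were 22.2% and 9.87%. Syt1, the main calcium sensor for fast release in many central neurons, read 79.1 in MM18, 111.1 in MM19 and 136.6 in MM15. Its regenerating samples ran from 28.5 through 53.0 to 71.2, all below the traced ones (log2 -0.96, SE 0.28, adjusted p = 0.0737 by limma). Non-regenerating samples ran from 32.6 through 58.2 to 99.5 and overlapped them (log2 -0.76, SE 0.35, adjusted p = 0.472 by limma). Syt2, a fast calcium sensor close to Syt1, read 84.4, 99.2 and 127.7 in MM18, MM19 and MM15. Both axotomised groups lay wholly below these values, at 27.6 through 57.4 to 81.9 in regenerating and 28.3 through 51.2 to 72.3 in non-regenerating samples. Its log2 differences were -0.76 (SE 0.28, adjusted p = 0.120) and -0.86 (SE 0.29, adjusted p = 0.472, both by limma).

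At the brightest probe set, Syt2 was the only member whose non-regenerating and traced groups did not overlap. That is 1 of 38 members lower with no overlap, against 1.24% of named genes. None was higher with no overlap, against 1.33%. Between regenerating and traced neurons, again at the brightest probe set, the groups of 5 members did not overlap (Syn1, Sv2c, Syt1, Syt2 and Erc1). All 5 were lower in regenerating neurons, against 7.43% of named genes. No member was higher with no overlap, against 2.91%. Syt11 differed by log2 -1.23 between regenerating and traced neurons (adjusted p = 0.148 by limma), with traced samples as far apart as 38.0 in MM19 and 228.8 in MM15. The members above a signal of 200, Syt3 (-0.59), Syt4 (-0.37) and Cplx1 (-0.04), had unadjusted p values over 0.05 in that comparison. Cplx1, a complexin, read 4205.4 in MM18, 4035.8 in MM19 and 6543.3 in MM15, and ran from 3534.8 through 4742.2 to 5570.3 in regenerating and from 2934.6 through 4807.6 to 6176.0 in non-regenerating samples. These groups overlapped, with log2 differences from traced neurons of -0.04 and 0.01.

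The fusion core gave no member at an unadjusted p under 0.05 in any comparison at its brightest probe set. Its 7 tested genes had median log2 differences of -0.11 between regenerating and non-regenerating, 0.00 between non-regenerating and traced and -0.18 between regenerating and traced neurons. Snap25, a SNARE of the plasma membrane, was the brightest of them. Traced samples read 4070.8 in MM18, 3833.7 in MM19 and 11153.8 in MM15, and the regenerating range, 2887.2 through 5438.6 to 6485.8, and the non-regenerating range, 2850.1 through 5706.8 to 10417.7, spanned the first pair. The highest Snap25 values were those of MM15 and of non-regenerating MM17, the 2 arrays that stood apart. Log2 differences from traced neurons were -0.26 (SE 0.35) for regenerating and 0.00 (SE 0.39) for non-regenerating neurons.

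**Figure D3:**
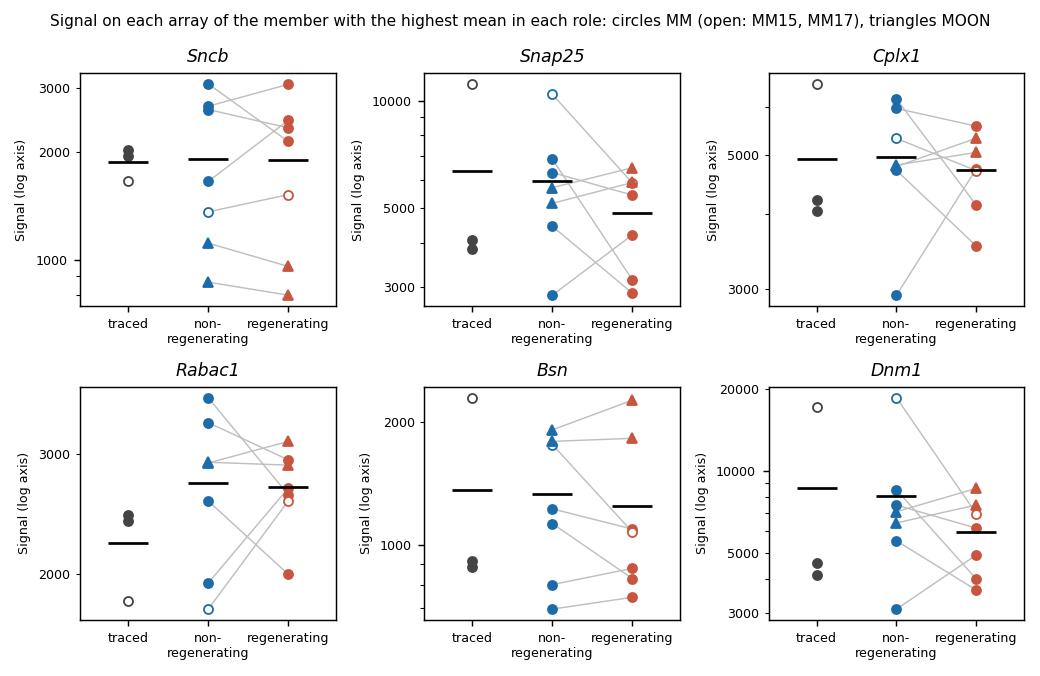
Signal, on a log axis, of the brightest tested member of each role on each array, drawn as in the plot of 8 members above. Groups overlap for all 6 genes, and for Snap25, Bsn and Dnm1 traced MM15 reads 2291.9 to 17140.5, far above MM18 and MM19.

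Active zone genes included 3 of 6 lower at an unadjusted p under 0.05 in regenerating against traced neurons and 1 of 6 in non-regenerating neurons. The shares of named genes were 13.5% and 5.97%. Below a signal of 200, where Rims1 and Erc1 lay, the share in regenerating neurons was 22.2%. Rims1 read 73.9 in MM18, 57.5 in MM19 and 122.6 in MM15. Regenerating samples ran from 1.3 through 17.3 to 66.8 and non-regenerating samples from 2.7 through 34.1 to 92.0, and a MOON animal gave the lowest value of both. The log2 differences were -1.33 (SE 0.41, adjusted p = 0.0837) and -0.98 (SE 0.47, adjusted p = 0.472, both by limma). The mean log2 signal of Rims1 over all arrays, 5.65, was the lowest of the tested members and close to the limit for being tested. Traced samples raised that mean, so its being tested was not independent of these differences. Nrxn3, a presynaptic adhesion receptor, read 1036.7 in MM18, 857.6 in MM19 and 794.6 in MM15, against 305.5 through 582.4 to 918.7 in regenerating and 370.3 through 597.0 to 977.4 in non-regenerating samples. Its groups overlapped, with log2 differences of -0.69 (adjusted p = 0.181) and -0.63 (SE 0.29, adjusted p = 0.472, both by limma). Erc1, which encodes ELKS, was at -0.66 (adjusted p = 0.116 by limma) between regenerating and traced neurons. Bsn, for the scaffold Bassoon, was the brightest gene of the role, at 914.9, 884.4 and 2291.9 in MM18, MM19 and MM15, 745.0 through 1076.6 to 2260.2 in regenerating and 697.1 through 1225.8 to 1912.8 in non-regenerating samples. Its groups overlapped, and its log2 differences from traced neurons were -0.10 and 0.02.

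Among the 5 endocytic genes, Amph lay farthest below traced neurons. Amphiphysin senses curved membrane and brings dynamin to the neck of a budding vesicle. Traced samples read 72.5 in MM18, 102.8 in MM19 and 167.4 in MM15, regenerating samples ran from 7.9 through 38.6 to 73.7, and non-regenerating samples from 22.4 through 43.9 to 127.8. Only the highest regenerating sample reached the traced range. Log2 differences were -1.25 (SE 0.36, adjusted p = 0.0718) and -0.96 (SE 0.40, adjusted p = 0.472, both by limma). Dnm1, the neuronal dynamin that cuts vesicles free, read 4587.4 in MM18, 4146.3 in MM19 and 17140.5 in MM15. Regenerating samples ran from 3632.5 through 6148.2 to 8619.5 and non-regenerating ones from 3092.2 through 7071.7 to 18604.5, with the highest of these in MM17. The groups overlapped, and log2 differences from traced neurons were -0.27 (SE 0.40) and 0.05 (SE 0.49). Bin1 (-0.05, or 0.25 with the MM animals alone), Synj1 (0.09) and Snap91 (-0.43), encoding a second amphiphysin, synaptojanin and a clathrin assembly protein, had unadjusted p values above 0.05 between regenerating and traced neurons. Rabac1, the brightest of the Rab3 group, read 2441.0, 2395.3 and 1831.2 in MM18, MM19 and MM15, 2000.6 through 2671.0 to 3124.9 in regenerating and 1779.8 through 2907.0 to 3618.6 in non-regenerating samples, again with overlapping groups.

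Some markers of glia differed between the same groups. All 8 tested microglia markers were higher in both axotomised groups than in traced neurons, by a median log2 of 1.23 in non-regenerating and 1.52 in regenerating samples, and 7 of 8 had an unadjusted p under 0.05 in each. Their summed signal did not overlap, at 3567 to 4226 in traced, 6633 to 10638 in non-regenerating and 6863 to 11683 in regenerating samples. Astrocyte markers were higher for 8 of 9 and 7 of 9 genes, with summed signal of 14835 to 20967 in traced, 14695 to 27238 in non-regenerating and 15688 to 25735 in regenerating samples. Oligodendrocyte markers lay on both sides of 0, with median log2 differences of -0.04 in non-regenerating and -0.19 in regenerating samples. None of the 7 tested had an unadjusted p under 0.05. Neuron markers had median log2 differences of -0.01 and -0.10. None of the glial markers tested was at 0, and their part in the members' differences was not tested.

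Of the tested genes, 7 had more than 1 tested probe set, and these did not always give the same direction. Between regenerating and traced neurons the brightest probe sets of the 7 genes had a median log2 difference of -0.12, with 1 lower at an unadjusted p under 0.05. The 9 other probe sets were all below 0, with a median of -0.68, and 5 were lower at that p. Over all tested probe sets 59.2% were below 0 and 17.6% were lower at that p. The other probe sets are by choice the dimmer ones of each gene. Among named genes with a mean signal below 200, 3493 of 5229 were below 0 and 22.2% were lower at that p. Nsf, the ATPase that disassembles SNARE complexes, was at 0.18 (SE 0.27) on its bright probe set (-0.05 with the MM animals alone) and at -0.84 (SE 0.22, adjusted p = 0.0685 by limma) on a dimmer one. The dimmer Nsf probe set read 344.8, 350.1 and 328.9 in MM18, MM19 and MM15 and 146.4 to 247.2 in regenerating samples, without overlap. Its non-regenerating samples, at 115.9 to 292.8, also lay below all traced samples (log2 -0.71, SE 0.285, adjusted p = 0.472 by limma). Cplx1 was at -0.04 and at -1.19 (SE 0.34, adjusted p = 0.0718 by limma). Syn2 was at 0.22, -0.82 and -0.02, Napg at -0.12 and -0.57, Sv2b at -0.46 and -0.83 (the first at 0.47 with the MM animals alone), Vamp1 at -0.52, -0.68 and -0.53, and Erc1 at -0.66 and -0.42. Signs were opposite for Nsf and Syn2 in this comparison, for Cplx1, Napg, Nsf and Syn2 between non-regenerating and traced neurons, and for Syn2 within animals.

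**Figure D4:**
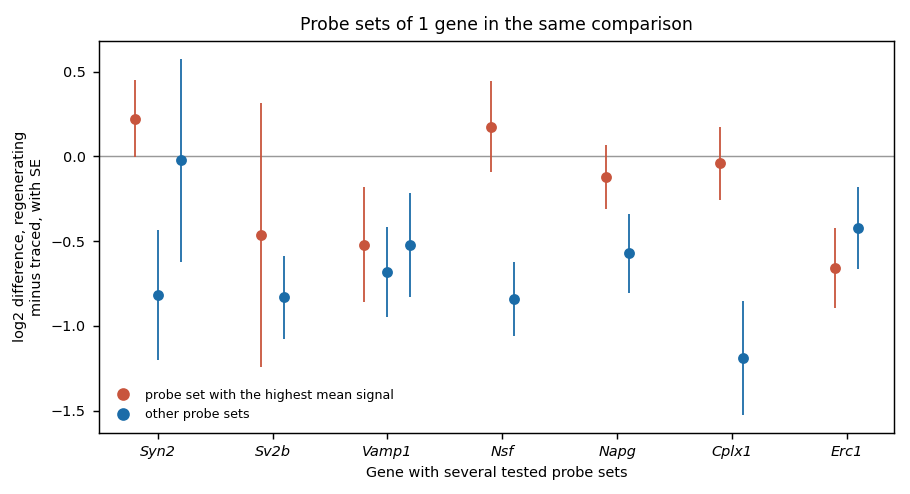
Log2 difference between regenerating and traced neurons, with limma's SE, for every tested probe set of the 7 genes that have several. The brightest probe set of Nsf lies at 0.18 and its other one at -0.84, and those of Cplx1 lie at -0.04 and -1.19.

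Close relatives were compared directly in 7 pairs. For each pair the difference of log2 signals was taken within an array, and its change between groups was tested, which does not compare the levels of 2 genes. Exact tests, two-sided, were adjusted over the 7 pairs of a comparison. Each SD given for a comparison with traced neurons is pooled from the spread within both groups. Between regenerating and traced neurons, Syn2 minus Syn1 was higher by 2.30 (SD 0.88, exact p = 0.00833, adjusted p = 0.0292). All 7 regenerating arrays lay above all 3 traced ones. Sv2c minus Sv2a was lower in regenerating neurons (log2 -0.998, SD 0.29, exact p = 0.00833, adjusted p = 0.0292), again without overlap. The p of 0.00833 is the smallest that 7 arrays against 3 can give. Leaving out MM15, MM18, MM19, MM11 or MM14, or the 2 MOON animals, gave adjusted p values of 0.0625 to 0.0972 for both pairs; with 2 traced arrays the smallest possible p is 0.0278, and with the MM animals alone 0.0179. The Syn2 value rests on the brightest of the 3 Syn2 probe sets, which differ in direction as given above. The differences of Syn2 (0.22) and Sv2a (0.12) were small beside those of Syn1 (-2.07) and Sv2c (-0.88). Both pair results therefore use the same Syn1 and Sv2c values that missed the threshold adjusted over all probe sets. They are not separate support for those values.

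Rims2 minus Rims1 was higher by 1.33 in regenerating than in traced neurons (SD 0.80, exact p = 0.0417, adjusted p = 0.0972). Vamp1 with Vamp2, Syt2 with Syt1, Sv2b with Sv2a and Rab3c with Rab3a had adjusted p values of 0.681 or more in that comparison. The change of Syt2 against Syt1 was 0.19 (SD 0.32, exact p = 0.442). None of the 7 pairs passed between non-regenerating and traced neurons, where the smallest adjusted p was 0.438 (permutation), and none within animals, where it was 0.391 (exact sign flips). For Syn2 minus Syn1 those changes were 1.91 (pooled SD 1.47) and 0.38 (SD over animals 0.96, higher in 5 of 7 animals).

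**Figure D5:**
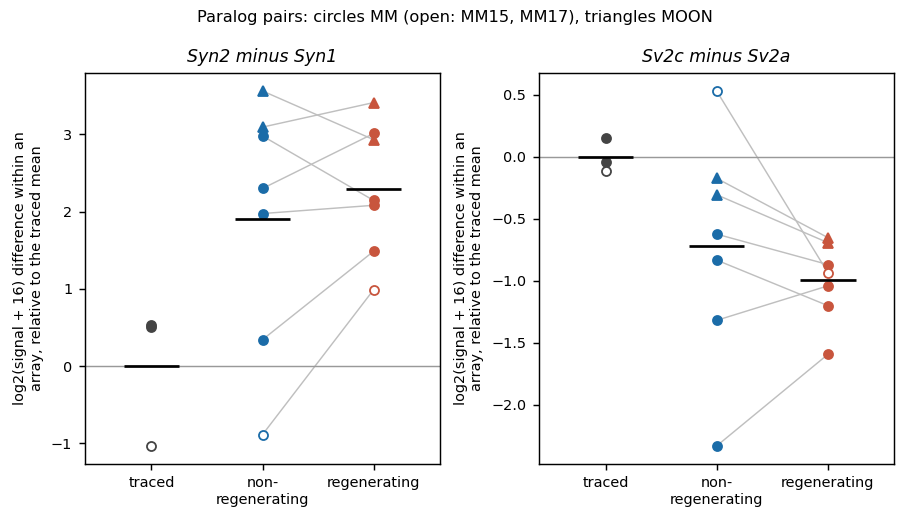
Change of the within-array log2 difference between 2 related genes, relative to its mean in traced neurons, on each array; bars are group means, lines join the samples of 1 animal, triangles are MOON animals and open circles MM15 and MM17. All 7 regenerating arrays lie above the traced ones for Syn2 minus Syn1, by 2.30 on average, and below them for Sv2c minus Sv2a, with a mean of -0.998.

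Beyond the 51 genes, 44 of 73 further release genes chosen by name were tested against traced neurons, and none passed the adjusted threshold. In regenerating neurons 4 were higher and 5 lower at an unadjusted p under 0.05, against 7.07% and 13.5% of named genes. Stxbp3, a Munc18 protein that binds syntaxins, was at 1.08, the scaffold Apba1 at 0.86, Vamp8 at 0.80 and Rab27a at 0.61. Rab27b, a GTPase of secretory granules, was at -1.37 (SE 0.35, adjusted p = 0.0685 by limma), with means of 107 in regenerating, 141 in non-regenerating and 291 in traced neurons. The scaffold Cask (-0.67), the postsynaptic adhesion gene Nlgn2 (-0.67), Sh3gl3 (-0.64), an endophilin, and Rab3gap1 (-0.42), a regulator of Rab3, were the other 4. In non-regenerating neurons Stxbp3 (0.99) and Apba1 (0.85) were higher and Rab27b (-1.27) lower at that p, against 3.11% and 5.97% of named genes. Vamp8 and Stxbp3 are also widely expressed outside neurons, and the microglia markers given above were higher in the same samples, whose part was not tested.

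The 28 member probe sets that were not tested had group means of 3.4 to 55.8, and no direction is given for them.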

How the data were processed

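Signal intensity per probe set, on a linear scale, was deposited by the authors, made with GCOS (Affymetrix GeneChip Operating Software) per the submitters' processing notes; its version and settings are not given in the sources used here. Arrays were used as deposited, because their trimmed means (2% taken off at either end) already lay between 200.04 and 200.08. No array duplicated another. Values were analysed as log2(signal + 16), where 16 is the 25th percentile over the table. Probe sets in the lower 40% by mean log2 signal (12417) and 57 controls were not tested, which left 18625. Symbols came from the platform annotation, which gave 1 symbol for 20832 probe sets, several for 436 and none for 9831.

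Models were fitted by limma 3.58.1 under R 4.3.3, using lmFit followed by eBayes with its trend option, with Benjamini-Hochberg adjustment over all 18625 probe sets and a threshold of 0.05. Regenerating and non-regenerating samples were compared with a term for each animal; comparisons with traced samples had no such block. Pairing came from animal names in the titles; deviations from group means correlated at r = 0.345 to 0.709 within an animal (0.131 to 0.552 within name prefixes). The labels name the rats as separate animals. Described in full were, per comparison, up to 5 members higher and 5 lower with the smallest unadjusted p under 0.05, and the brightest member of each role; Erc1, Rims1 within animals, second probe sets and the split at a signal of 200 were added after their values were seen. Members and lists were chosen with earlier results of these data known. The planned pair of Synj2 with Synj1 was left out because Synj2 was dim. Scripts were tested on simulated data. Protein sequences are not printed here. Promoter sequences are those of RefSeq for GRCr8. Python 3.11.15, numpy 2.4.6 and matplotlib 3.10.9 were used for pairs and figures. Alternatives covered scaling, offset, filter, trend, array weights, 3′ bias, name prefix, the block, a joint fit and each array left out. The number of arrays limits precision.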

Additional observations from a re-analysis of the deposited data

Results flagged for a closer look

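Among 30 combinations of a described gene with a group of 7 samples, 1 held a sample far from the others. Cplx1 read 2934.6 in non-regenerating MM16, the lowest of that group, where the nearest other sample read 4711.7. The gap was 0.636 of the group's range on the log2(signal + 16) scale. Chance flags about 1 in 20 such groups.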

How the results depend on the processing

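No member was called in the comparison within animals under any of 21 alternatives. The tested genes described by p (13 results, 285 values over the alternatives) kept their direction in all, and 19 values crossed the adjusted threshold that the reported ones miss. Member probe sets called against traced neurons, of 47, were 0 as reported. In non-regenerating neurons array weights gave 7 (Syp higher; Syt2, Nsf, Amph, Syt1, Sv2c and Syn1 lower). In regenerating neurons quantile normalization gave 1 and centring on array medians 1 (Syn1 in both), an offset of 64 gave 5, array weights 9, and leaving out single arrays 0 to 5, with 5 without regenerating MM17 and 1 without regenerating MM16. Centring moved the members' median to 0.25 in both comparisons with traced neurons, where named genes were at 0.30 and 0.35.

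Over all probe sets, 3 were called within animals as reported. Quantile normalization, an offset of 1, no filter, and dropping the 2 arrays that stood apart gave 0, the Gapdh covariate and the MM animals alone gave 1, and leave-outs 0 to 3. Without the replicate block 0 were called, no member among them, so the paired fit changed no member's call. Between non-regenerating and traced neurons, 8 as reported, the count was 17 with quantile normalization, 3 with an offset of 64, 2440 with array weights, 4 with the covariate, 3 with MM alone, 23 in the joint fit and 2 to 37 in leave-outs (37 without non-regenerating MM17). Between regenerating and traced neurons, 40 as reported, it was 210 with quantile normalization, 329 with centring, 859 with an offset of 64, 20 with a filter at the 70th percentile, 3131 with array weights, 1 with the covariate, 70 with MM alone, 1 without the 2 arrays and 1 to 1504 in leave-outs (1504 without regenerating MM17). The causes were not tested.

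For the pairs of relatives, alternatives were chosen after seeing the data. Syn2 minus Syn1 was 1.94 and Sv2c minus Sv2a -1.13 with the MM animals alone, both no longer past the threshold. Leave-outs gave 1.78 to 2.56 and -1.06 to -0.90.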
